A study of Mus musculus with 44 samples.

Results

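The comparison set small intestine organoids (2 libraries) against gastric organoid lines carrying lentiviral CDX2, here called CDX2 lines (3 libraries). Organoids are epithelial cultures grown in Matrigel. These 5 libraries were chosen by their labels out of 20 RNA libraries in the deposited count table and 44 samples in the series, and all 12720 genes that passed the filter on low counts were compared. Small intestine organoids carried no added gene, per the labels. The gastric cultures of all 3 line groups were transduced with a lentivirus, and the labels give the strain of every sample as C57BL/6. Gastric lines carrying HNF4A (3 libraries) and lines carrying GFP, a neutral product (3 libraries), were fitted together with them so that all groups share one estimate of the spread, and their levels are given beside the compared groups. For the lentiviral lines the tissue tag gives stomach and the source name gives small intestine, and the titles and the tissue tag were followed. Medium, passage, the part of the intestine or stomach used and whether each line is a clone are not stated by the labels. Nothing says that the libraries of a group come from separate animals, so p-values measure the spread between these libraries. With the design as labelled, a difference between the groups covers tissue of origin, viral transduction and CDX2 together, which cannot be told apart. The series' design asks what intestinal transcription factors do when expressed in stomach cells, and the question here is which genes still separated CDX2 lines from small intestine.

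CDX2 is a homeodomain transcription factor of the intestinal epithelium that is absent from healthy adult stomach. It acts with HNF4A, a nuclear receptor of absorptive cells, on genes of the brush border, the dense layer of microvilli through which enterocytes take up nutrients. The stomach epithelium instead makes gel-forming and membrane mucins, gastrokines and trefoil peptides, under factors that include SOX2.

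Of 7 intestinal markers (Cdx1, Vil1, Cdh17, Fabp1, Olfm4, Lyz1 and Muc2), each had reads in both small intestine libraries, but Olfm4 and Fabp1 had 0.279 and 2.42 CPM in replicate 1. Of 8 gastric markers (Sox2, Muc5ac, Tff1, Gkn1, Gkn2, Muc6, Pgc and Cldn18), none exceeded 5.05 CPM in small intestine; Sox2, Muc6, Pgc and Cldn18 had over 6 CPM in every CDX2 line, while Muc5ac, Gkn1 and Gkn2 did not exceed 5.21 CPM there. Total counts were 11007809 and 9209891 in small intestine and 10338120, 8336729 and 6180498 in the CDX2 lines, so that 3 counts correspond to 0.279 to 0.473 CPM. CPM are counts scaled to a common library size with TMM factors. They are not divided by gene length and are compared here only between libraries. The 2 small intestine libraries correlated at a Spearman rho of 0.963 across tested genes, which are not independent replicates. Small intestine replicate 2 stood nearer the CDX2 lines (rho 0.93, 0.937 and 0.889 with CDX2 replicates 1, 2 and 3) than small intestine replicate 1 did (0.879, 0.897 and 0.841).

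Small intestine replicate 2 also held transcripts of some genes that were strong in the stomach lines. Counted on CPM + 1, 41 tested genes were more than 8-fold higher in replicate 2 than in replicate 1 at 20 CPM or more, and 26 of them averaged at least 20 CPM in the GFP lines. Only 5 genes were as far apart in the other direction, 1 of them at that level in the GFP lines. The share of all tested genes at that level in the GFP lines was not counted, so 26 of 41 is not read as an excess. Among the 41, picked here after their values were seen, are Gkn3 (gastrokine 3, 0 and 49.2 CPM in small intestine replicates 1 and 2), Ctse (cathepsin E, 0.466 and 55.6 CPM) and Vsig1 (a junction protein of the stomach, 0.745 and 52.1 CPM). The 41 also hold intestinal genes, among them Olfm4 (0.279 and 76.9 CPM), Muc2 (5.96 and 55.1 CPM) and Alpi (12.6 and 146 CPM). Sox2, Muc1 and Nkx6-3, which every stomach line held at 17.7 CPM or more, did not exceed 0.11 CPM in either small intestine library. The part of these genes in the results was not tested, and counts are given below without either library.

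In the 11 libraries together, 1437 of 12720 genes (11.3%) differed between the compared groups: 716 (5.63%) were higher in small intestine and 721 (5.67%) lower than in the CDX2 lines at an adjusted p under 0.05 (edgeR quasi-likelihood test), and these genes are said to be called, to have risen or to have fallen. In a list of about 20 genes these shares amount to about 1 call each way, so lists with 1 or 2 calls are near the background and are described by their members. Libraries of the compared groups did not overlap in any of the 716 and 721 called genes, so lack of overlap adds nothing to a call. Of all tested genes 24.2% were higher and 23.6% lower in small intestine without overlap. The higher calls were mostly modest: 87 of 716 (12.2%) exceeded 4-fold and the median was 2.22-fold. The lower calls were steeper: 397 of 721 (55.1%) exceeded 4-fold and the median was 4.66-fold. Genes called lower had median levels of 6.67 CPM in small intestine and 34.5 CPM in the CDX2 lines, and of 33.2 CPM in the HNF4A lines and 43.4 CPM in the GFP lines. Genes called higher had medians of 77.9 CPM in small intestine and 33 CPM in the CDX2 lines, and of 36.2 CPM in the HNF4A lines and 30.3 CPM in the GFP lines.

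The number of calls rested on the spread shared with the other stomach lines and on single libraries. Fitted on the 5 compared libraries alone, 16 genes were higher and 54 lower. Without small intestine replicate 1 the counts were 22 and 81, without CDX2 replicate 1 they were 302 and 498, and without CDX2 replicate 3 they were 149 and 295. Without small intestine replicate 2 they were 642 and 759, and without CDX2 replicate 2 they were 526 and 561. A fit without 1 small intestine library assumes that the lone one varies like the other groups. Of the 80 called genes among the 124 picked by rule, 20 stayed called without small intestine replicate 1, 50 without replicate 2, and 58, 53 and 39 without CDX2 replicates 1, 2 and 3. The 10 that were called under each of the 12 alternatives run were Anxa13, Oat, Cldn18, Fut2, Gna14, Ltf, Muc1, Nkx6-3, Notum and Reg3g. Statements below that a gene lost its call or passed the threshold leave out the fit with a replicate block, which is described at the end.

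**Figure D1:**
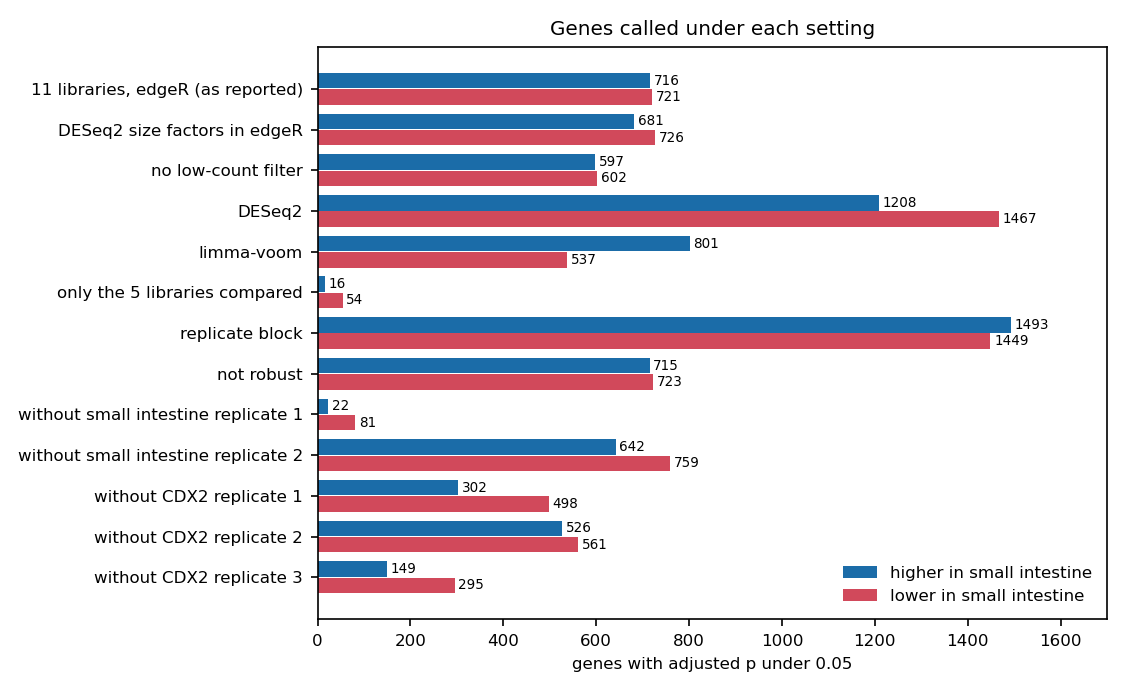
Number of genes called higher (blue) and lower (red) in small intestine than in the CDX2 lines, on the x axis, under each setting on the y axis. The fit as reported gave 716 and 721, the fit on the 5 compared libraries alone 16 and 54, and the fit without small intestine replicate 1 gave 22 and 81.

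Of 24 transcription factors of the intestine tested, 2 rose and none fell in small intestine, with a median log2 fold change of 0.63 beside -0.03 over all tested genes. Cdx2 itself had 282 and 272 CPM in small intestine, against 199.9, 288 and 62 CPM in the CDX2 lines (log2 fold change 0.60 ± 0.55 (SE), adjusted p = 0.502). CDX2 replicate 2 thus stood above both small intestine libraries and replicate 3 well below. The table does not say whether counts of the introduced gene, whose species the labels do not give, are included. In the HNF4A lines Cdx2 averaged 34.1 ± 14.7 CPM and in the GFP lines 4.86 ± 2.27 CPM (SD, n = 3 each).

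Cdx1, the close relative of Cdx2, had 78.4 and 174 CPM in small intestine, against 23.7, 8.93 and 2.21 CPM in the CDX2 lines, and no GFP line had a count. The groups did not overlap, but the difference missed the threshold (log2 fold change 3.42 ± 1.02 (SE), adjusted p = 0.0676). Isx, an intestinal homeobox repressor of carotenoid and retinoid uptake, had 125 and 136 CPM in small intestine, against 104, 71.5 and 30.3 CPM in the CDX2 lines (log2 fold change 0.92 ± 0.53 (SE), adjusted p = 0.282), and no read in any GFP line. Hnf4a had 717 and 885 CPM in small intestine, against 440.5, 197 and 186 CPM in the CDX2 lines, so the groups did not overlap, and it rose in small intestine (log2 fold change 1.54 ± 0.39 (SE), adjusted p = 0.0357). The GFP lines averaged 129 ± 31.4 CPM, below CDX2 replicates 2 and 3. Hnf4a lost its call without small intestine replicate 1 or 2 or CDX2 replicate 2 or 3 or with the 5 compared libraries alone (adjusted p between 0.0796 and 0.169). Cdx1 passed the threshold by limma-voom (adjusted p = 0.018).

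Nr5a2, a nuclear receptor of crypts, had 8.1 and 5.27 CPM in small intestine, against 1.01, 0.241 and 0.316 CPM in the CDX2 lines (log2 fold change 3.61 ± 0.94 (SE), adjusted p = 0.0383). Nr5a2 lost its call without small intestine replicate 1 or 2 or CDX2 replicate 2 or 3 or with the 5 compared libraries alone (adjusted p between 0.0621 and 0.268). Hnf4g, the partner of Hnf4a in enterocytes, had 23.2 and 46.6 CPM in small intestine, against 38.5, 22.6 and 20.2 CPM in the CDX2 lines (log2 fold change 0.36 ± 0.37 (SE), adjusted p = 0.538). Vdr, the vitamin D receptor, split the lines: CDX2 replicate 1 had 118 CPM, above small intestine at 95 and 96.4 CPM, while replicates 2 and 3 had 9.89 and 19.9 CPM.

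Osr2, a zinc finger gene on the ileum list, had 20.7 and 11.4 CPM in small intestine, against 0, 0 and 0 CPM in the CDX2 lines, and was at least 134-fold higher in small intestine, counted against 3 reads over the CDX2 group (adjusted p = 0.0203). Of 39 Hox cluster genes only Hoxa3 passed the filter on low counts; it had 2.14 and 3.73 CPM in small intestine, against 0, 0.121 and 0 CPM in the CDX2 lines (log2 fold change 5.74 ± 1.35 (SE), adjusted p = 0.0363). Osr2 lost its call without small intestine replicate 1, by DESeq2 or with the 5 compared libraries alone (adjusted p between 0.0505 and 0.179). Hoxa3 lost its call without any 1 of the 5 libraries or with the 5 compared libraries alone (adjusted p between 0.0638 and 0.172).

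Stomach transcription factors went the other way. Of 12 tested, 4 fell in small intestine and none rose, all 12 fitted fold changes were negative and the median was -1.49. The list was picked as stomach genes with earlier results known, so a negative sign was likely beforehand and is not support. Sox2 (chr3:34649995-34652461 in GRCm38.p6), a high-mobility-group factor of foregut and stomach, had 0 and 0 CPM in small intestine, against 59.7, 72.2 and 17.7 CPM in the CDX2 lines. No read fell on it in small intestine, which puts it at least 351-fold lower there, counted against 3 reads over the group (adjusted p = 0.00354). In the HNF4A lines it averaged 45.1 ± 14.5 CPM and in the GFP lines 82.9 ± 36.9 CPM (SD, n = 3 each), so that CDX2 replicates 1 and 2 lay in the reach of the other stomach lines and replicate 3 below. Sox2 lost its call by limma-voom or with the 5 compared libraries alone (adjusted p = 0.0832 and 0.0516).

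Nkx6-3 (chr8:23153271-23158948), a homeobox factor of the antral stomach, had 0.0931 and 0.11 CPM in small intestine, against 130, 72.3 and 65.2 CPM in the CDX2 lines (adjusted p = 0.000286). The ratio of CDX2 lines to small intestine was 931 (95% counting interval 257 to 7692); the HNF4A lines averaged 81.3 ± 24.4 CPM and the GFP lines 91 ± 37.2 CPM. Sox21, a second Sox gene of the stomach, had 32.2 and 39.3 CPM in small intestine, against 178, 115 and 78.4 CPM in the CDX2 lines (log2 fold change -1.79 ± 0.36 (SE), adjusted p = 0.0182). Tfcp2l1, a grainyhead-type factor of ducts, had 12.3 and 25.7 CPM in small intestine, against 103, 54.7 and 58.5 CPM in the CDX2 lines (log2 fold change -1.93 ± 0.40 (SE), adjusted p = 0.0204). Sox21 and Tfcp2l1 lost their calls without small intestine replicate 1 or with the 5 compared libraries alone (adjusted p between 0.0865 and 0.188). Pdx1, the homeobox factor of antrum, duodenum and pancreas, had 6.33 and 21 CPM in small intestine, against 44.6, 33.7 and 33.9 CPM in the CDX2 lines and missed the threshold (log2 fold change -1.46 ± 0.43 (SE), adjusted p = 0.0563), but passed it without small intestine replicate 2 (adjusted p = 0.0066). Foxa1, Foxa2 and Foxa3, forkhead factors of gut endoderm, were not called by edgeR (log2 fold changes -0.77, -0.79 and -0.04). Foxa1 passed the threshold by DESeq2 (adjusted p = 0.0403). Pdx1 passed the threshold by DESeq2 or by limma-voom (adjusted p = 0.00856 and 0.0337).

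Promoter stretches are shown for Sox2 and Muc1, stomach genes called lower in small intestine, and for absorptive genes: the pair Abcg5 and Abcg8, called higher, and Sis and Fabp1, neither of them called. They are from RefSeq (GRCm38.p6), 150 bases before the annotated start on the gene's strand, or the 109 bases between the starts of Abcg5 and Abcg8. For Abcg8 the start furthest along the plus strand was used. Its gene span begins before that, at chr17:84676302 inside Abcg5. Capitals mark CATAAA, the core letters recognised by CDX proteins, or AGATAA, the core of GATA factors, on either strand.
Sox2 (chr3:34649845-34649994, plus strand): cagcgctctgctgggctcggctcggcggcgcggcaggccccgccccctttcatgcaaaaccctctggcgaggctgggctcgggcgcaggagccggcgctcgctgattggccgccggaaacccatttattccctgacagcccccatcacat
Muc1 (chr3:89228906-89229055, plus strand): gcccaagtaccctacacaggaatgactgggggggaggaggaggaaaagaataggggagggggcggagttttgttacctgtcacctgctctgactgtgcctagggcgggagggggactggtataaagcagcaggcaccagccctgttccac
Sis (chr3:72967864-72968013, minus strand): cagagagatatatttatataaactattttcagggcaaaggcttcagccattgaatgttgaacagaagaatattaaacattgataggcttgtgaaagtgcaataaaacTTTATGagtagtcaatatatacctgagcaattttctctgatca
Fabp1 (chr6:71199729-71199878, plus strand): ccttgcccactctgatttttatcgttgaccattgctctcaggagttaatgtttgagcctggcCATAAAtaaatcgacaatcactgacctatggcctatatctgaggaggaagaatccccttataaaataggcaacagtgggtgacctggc
Abcg5-Abcg8 (chr17:84683012-84683120, plus strand): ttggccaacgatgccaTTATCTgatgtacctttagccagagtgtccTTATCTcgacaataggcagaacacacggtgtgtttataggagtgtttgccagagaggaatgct
The stretches of Sis and Fabp1 each hold 1 CDX core, that between Abcg5 and Abcg8 holds 2 GATA cores, and those of Sox2 and Muc1 hold neither. Within the 250 bases before the start, CATAAA stood before 7.28% of 563 genes called higher and 6.84% of 526 called lower that have a promoter in the table, beside 7.41% of 9767 tested genes and 10.8% of all 32851 promoters. For AGATAA the shares were 6.75%, 7.98%, 7.57% and 9.99%. The cores share the letters ATAA and neither contains the other. These matches are a description of letters, not of bound sites. Of the 124 genes named by rule, 77 have a promoter in the table.

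Several products of gastric pit cells, the mucous cells that line the stomach surface, separated the CDX2 lines from small intestine. Of 16 tested, 3 fell in small intestine and none rose, 14 fold changes were negative and the median was -2. As with the stomach factors, the list was picked as stomach genes, so the shared sign is not support. Muc1 (chr3:89229056-89233381), a membrane mucin, had 0 and 0.11 CPM in small intestine, against 144, 352 and 217 CPM in the CDX2 lines. The HNF4A lines averaged 640.1 ± 255 CPM and the GFP lines 812 ± 164 CPM. The ratio of CDX2 lines to small intestine was 4624 (95% counting interval 829.7 to 182700), with an adjusted p of 0.000286. Cldn18 (chr9:99690796-99717267), the claudin of the gastric barrier, had 0.466 and 1.43 CPM in small intestine, against 179, 401 and 688 CPM in the CDX2 lines (log2 fold change -8.81 ± 0.75 (SE), adjusted p = 0.000512), with 738 ± 110 CPM in the GFP lines. Every CDX2 line thus exceeded both small intestine libraries in these genes by more than 100 CPM.

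Fxyd3, a regulator of the sodium pump, also fell (17.1 and 74.2 CPM in small intestine, against 149.9, 190.2 and 173 CPM in the CDX2 lines; log2 fold change -1.91 ± 0.49 (SE), adjusted p = 0.0369). The 2 small intestine libraries stood apart in this group: the mean log2(CPM + 1) of the list was 1.483 and 3.357 in small intestine replicates 1 and 2, against 4.696, 4.66 and 5.034 in the CDX2 lines. Without small intestine replicate 2 the group had 7 members called lower, and without any other of the 5 libraries 2. Fxyd3 lost its call without small intestine replicate 1 or CDX2 replicate 1, 2 or 3 or with the 5 compared libraries alone (adjusted p between 0.0573 and 0.135). Classical pit markers were scarce in both groups: Muc5ac, the surface mucin, had 0 and 0 CPM in small intestine, against 0.402, 0.483 and 5.21 CPM in the CDX2 lines (12.3 ± 11 CPM in the GFP lines). Tff1, the surface trefoil peptide, had 0.279 and 5.05 CPM in small intestine, against 0.402, 13 and 15 CPM in the CDX2 lines (log2 fold change -1.84 ± 2.18 (SE), adjusted p = 0.607). Muc5ac passed the threshold by DESeq2 (adjusted p = 0.0117).

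Gland products differed widely between the CDX2 lines. Of 13 genes of gastric glands tested, 3 fell and none rose, 12 fold changes were negative, and the median was -4.75, or -3.69 with genes at 0 in small intestine put at their bound. Their mean log2(CPM + 1) was 2.016 and 3.104 in small intestine. With levels this low a negative sign was likely beforehand, so the shared sign is not support. Muc6 (chr7:141633459-141655393), the gland mucin, had 0.0931 and 0.439 CPM in small intestine, against 10.3, 90.4 and 886 CPM in the CDX2 lines, while the HNF4A lines averaged 2114 ± 2036 CPM and the GFP lines 4233 ± 2491 CPM (log2 fold change -10.25 ± 2.53 (SE), adjusted p = 0.0341). CDX2 replicates 1 and 2 therefore held a small part of the level of the GFP lines, and replicate 3 a larger one. Muc6 lost its call without small intestine replicate 1 or 2 or CDX2 replicate 3, by limma-voom, with no filter on low counts or with the 5 compared libraries alone (adjusted p between 0.0504 and 0.469).

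Aqp5, a water channel of antral glands, had 0.559 and 3.84 CPM in small intestine, against 192, 663 and 765 CPM in the CDX2 lines (log2 fold change -7.96 ± 0.99 (SE), adjusted p = 0.00313). Tff2, the gland trefoil peptide, had 0 and 0.11 CPM in small intestine, against 7.74, 19.6 and 25.6 CPM in the CDX2 lines (adjusted p = 0.0335). Gif, gastric intrinsic factor, was at 0 in small intestine and at 0.302, 22.4 and 333 CPM in the CDX2 lines and missed the threshold (adjusted p = 0.125). Gkn3 had 0 and 49.2 CPM in small intestine, against 186, 1022 and 1582 CPM in the CDX2 lines (adjusted p = 0.0962). CDX2 replicate 1 was the lowest and replicate 3 the highest of the CDX2 lines for Muc6, Aqp5, Tff2, Gif and Gkn3. For Muc6, Gif and Gkn3, but not for Aqp5 and Tff2, the HNF4A and GFP lines stood in the same order of their numbers; Muc6 had 228, 1843 and 4272 CPM in HNF4A lines 1, 2 and 3 and 2004, 3772 and 6923 CPM in GFP lines 1, 2 and 3. The list had 1 call without small intestine replicate 1, without CDX2 replicate 3 it had 1, and in the other fits without a library 2 or 3. Tff2 lost its call without small intestine replicate 1 or 2 or CDX2 replicate 2 or 3 or by limma-voom (adjusted p between 0.0521 and 0.324). Aqp5 lost its call with the 5 compared libraries alone (adjusted p = 0.0521). Gif passed the threshold by DESeq2 (adjusted p = 0.000155). Gkn3 passed the threshold without small intestine replicate 2 or by DESeq2 (adjusted p = 0.0207 and 0.0227).

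Genes outside the lists were also among the 12 steepest falls. Capn6, a calpain without protease activity, had 0 and 0 CPM in small intestine, against 34.9, 77.1 and 70.2 CPM in the CDX2 lines and was at least 385-fold lower in small intestine (adjusted p = 0.012). Serpinb11, a serpin, had 0 and 0.329 CPM in small intestine, against 148, 102 and 79.4 CPM in the CDX2 lines. Lrg1, a secreted leucine-rich glycoprotein, had 0 and 0.11 CPM in small intestine, against 29.9, 35.8 and 59.96 CPM in the CDX2 lines. Gna14, a G-protein alpha subunit, had 0 and 0.11 CPM in small intestine, against 26.8, 47.8 and 20.7 CPM in the CDX2 lines. Adjusted p-values were 0.00649 for Serpinb11, 0.000979 for Lrg1 and 0.000796 for Gna14, each with 1 to 3 reads in small intestine. Lrg1 lost its call by limma-voom (adjusted p = 0.0557).

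Gabrp, a GABA receptor subunit, had 0 and 0.22 CPM in small intestine, against 196, 118 and 28.1 CPM in the CDX2 lines, above 29.9 ± 24.9 CPM in the GFP lines in CDX2 replicates 1 and 2. Fxyd6, another pump regulator, had 0 and 0 CPM in small intestine, against 7.24, 19.3 and 52.2 CPM in the CDX2 lines. No read of Fxyd6 fell in small intestine, at least 152-fold below the CDX2 lines (adjusted p = 0.0155 for Gabrp and 0.0296 for Fxyd6). Capn6 and Serpinb11 lost their calls without small intestine replicate 1 or by limma-voom (adjusted p between 0.0785 and 0.19). Gabrp lost its call without small intestine replicate 1, by limma-voom or with the 5 compared libraries alone (adjusted p between 0.0516 and 0.24). Fxyd6 lost its call without small intestine replicate 1 or 2 or CDX2 replicate 3, by limma-voom or with the 5 compared libraries alone (adjusted p between 0.0667 and 0.311).

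**Figure D2:**
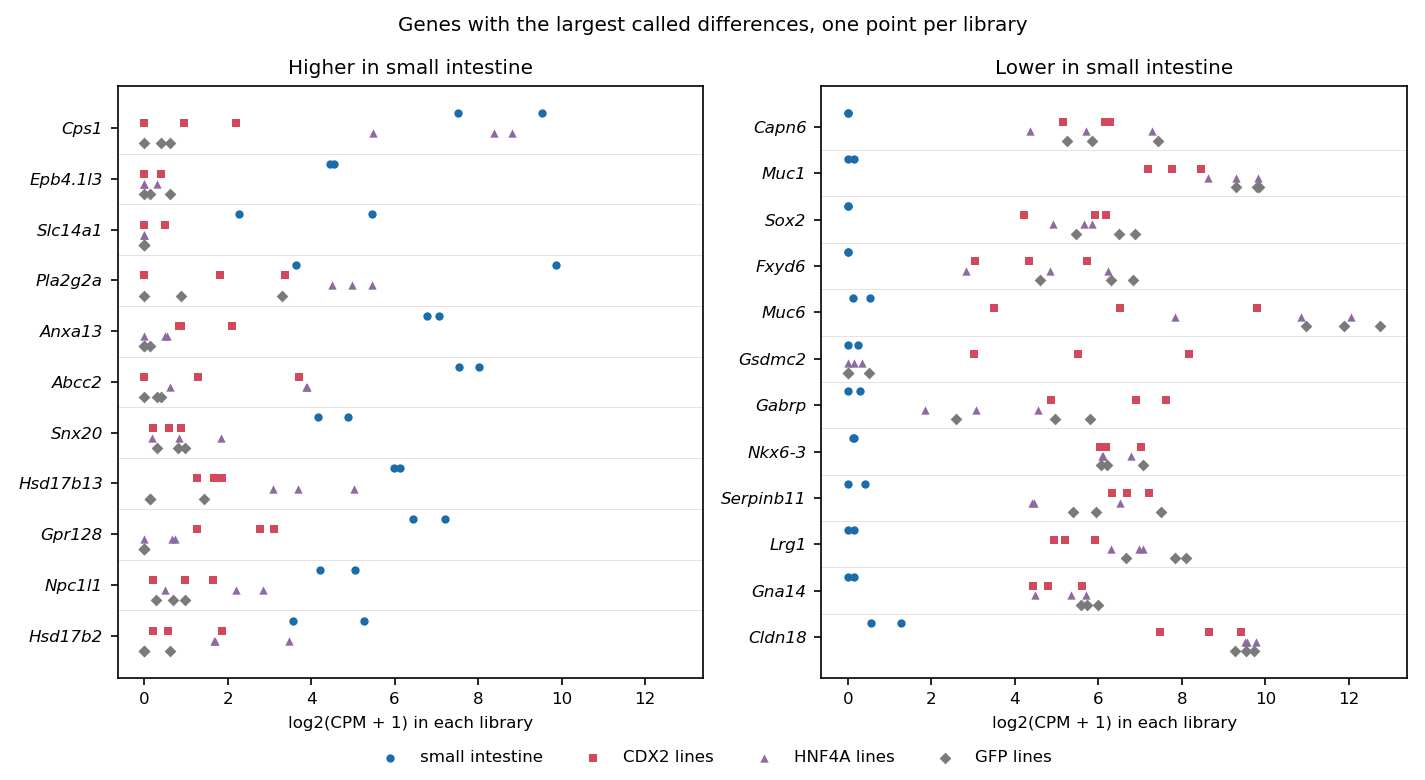
Levels in every library, as log2(CPM + 1) on the x axis, of genes among the 12 with the largest called fold in each direction (left, higher in small intestine; right, lower). Circles are small intestine, squares CDX2 lines, triangles HNF4A lines and diamonds GFP lines; in the left panel Cps1 is high in the HNF4A lines, and in the right panel Gsdmc2 is high in the CDX2 lines alone.

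None of 19 structural genes of the brush border was called by edgeR, with 1 higher and 1 lower at an unadjusted p under 0.05. DESeq2 called none, limma-voom 1 higher, and edgeR without CDX2 replicate 1 also 1 higher. Fold changes were positive in 16 of the 19. Without overlap 6 were higher in small intestine and 1 lower, beside 24.2% and 23.6% of all tested genes. Vil1, villin, the actin bundler of microvilli, had 494 and 576 CPM in small intestine, against 486, 483 and 362 CPM in the CDX2 lines (log2 fold change 0.27 ± 0.19 (SE), adjusted p = 0.369). Cdh17, an intestinal cadherin, had 773 and 728 CPM in small intestine, against 860.5, 347 and 202 CPM in the CDX2 lines (log2 fold change 0.68 ± 0.65 (SE), adjusted p = 0.52), whereas the GFP lines averaged 3.24 ± 1.39 CPM. Myo7b, a myosin of microvillar tips, had 347 and 414 CPM in small intestine, against 349, 119 and 284 CPM in the CDX2 lines. In the GFP lines it averaged 0.336 ± 0.0277 CPM. Cdh17 and Myo7b thus overlapped between the compared groups and were near 0 in the GFP lines, while for Vil1 both small intestine libraries stood above the CDX2 lines. CDX2 replicate 1 exceeded both small intestine libraries for Cdh17, and for Ezr, the linker ezrin (826 and 989 CPM in small intestine, against 1612, 1021 and 855 CPM in the CDX2 lines). The mean log2(CPM + 1) of the list was 7.236 in small intestine and 6.768 in the CDX2 lines, and 6.516 in the HNF4A lines and 4.852 in the GFP lines. By library it was 7.068 and 7.404 in small intestine, against 7.411, 6.55 and 6.342 in the CDX2 lines. Only CDX2 replicate 1 thus reached the small intestine libraries. A p that misses the threshold does not show equal levels: the interval for Ush1c, a scaffold of the tip link, was wide (log2 fold change 2.21 ± 0.85). Ush1c passed the threshold without CDX2 replicate 1 or by limma-voom (adjusted p = 0.00434 and 0.0302).

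Of 10 genes of sugar digestion and uptake, 1 rose in small intestine and none fell, with 9 positive fold changes and a median of 1.34. Slc5a1, the sodium-glucose cotransporter of the brush border, had 69 and 106 CPM in small intestine, against 24.8, 15.1 and 13.6 CPM in the CDX2 lines (log2 fold change 2.29 ± 0.55 (SE), adjusted p = 0.0316). Slc5a1 lost its call without small intestine replicate 1 or 2 or CDX2 replicate 2 or 3 or with the 5 compared libraries alone (adjusted p between 0.0552 and 0.135). Sis, sucrase-isomaltase, had 30.4 and 51.1 CPM in small intestine, against 8.55, 1.33 and 0.316 CPM in the CDX2 lines and no read in any GFP line. It missed the threshold (log2 fold change 3.54 ± 1.00 (SE), adjusted p = 0.058) and passed it without CDX2 replicate 1 (adjusted p = 0.0107), the line in which it was highest. Mgam, maltase-glucoamylase, had 221 and 471 CPM in small intestine, against 175, 131 and 192 CPM in the CDX2 lines (log2 fold change 1.06 ± 0.36 (SE), adjusted p = 0.0839). Lct, lactase, did not pass the filter on low counts: it had 1.21 and 0.878 CPM in small intestine, against 0.201, 0.121 and 0 CPM in the CDX2 lines. Sis passed the threshold by DESeq2 or by limma-voom (adjusted p = 0.00817 and 0.0148). Mgam passed the threshold by DESeq2 (adjusted p = 0.0386).

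Of 12 peptidases and other hydrolases of the microvillus, 2 rose and none fell (median 1.21). Dpp4, dipeptidyl peptidase 4, had 30.2 and 9.99 CPM in small intestine, against 0.302, 1.57 and 1.74 CPM in the CDX2 lines (log2 fold change 4.09 ± 0.72 (SE), adjusted p = 0.0117). Enpep, glutamyl aminopeptidase, had 3.35 and 6.8 CPM in small intestine, against 0.101, 0.121 and 0 CPM in the CDX2 lines (log2 fold change 5.76 ± 1.06 (SE), adjusted p = 0.019). The groups did not overlap in either gene, as in every called gene. Dpp4 lost its call without small intestine replicate 1 or with the 5 compared libraries alone (adjusted p = 0.123 and 0.0826). Enpep lost its call without small intestine replicate 1 or 2 or CDX2 replicate 3 or with the 5 compared libraries alone (adjusted p between 0.0516 and 0.0917). Alpi, intestinal alkaline phosphatase, varied within each group and overlapped between them (12.6 and 146 CPM in small intestine, against 79.1, 1.33 and 0.158 CPM in the CDX2 lines; log2 fold change 1.54 ± 2.00 (SE), adjusted p = 0.642). Anpep, aminopeptidase N, went the other way, with 6.8 and 13.6 CPM in small intestine, against 18.4, 171 and 407 CPM in the CDX2 lines, and missed the threshold (log2 fold change -4.28 ± 1.25 (SE), adjusted p = 0.0541). Anpep passed the threshold without CDX2 replicate 1 or by DESeq2 (adjusted p = 0.0237 and 0.002).

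Of 20 genes of fat and sterol handling, 6 rose in small intestine and none fell, with a median of 2.01. Mttp, the microsomal transfer protein that loads lipid onto apolipoprotein B, had 76.3 and 123 CPM in small intestine, against 19.4, 9.53 and 19.7 CPM in the CDX2 lines (log2 fold change 2.62 ± 0.33 (SE), adjusted p = 0.00354). The GFP lines had 20.9, 15.2 and 21.6 CPM (19.2 ± 3.5 CPM). CDX2 replicates 1 and 3 lay within that range and replicate 2 below it. Npc1l1, the cholesterol uptake protein of the brush border, had 32.1 and 17.6 CPM in small intestine, against 2.11, 0.965 and 0.158 CPM in the CDX2 lines (log2 fold change 4.45 ± 1.02 (SE), adjusted p = 0.0276). Npc1l1 lost its call without small intestine replicate 1 or CDX2 replicate 2 or 3 or with the 5 compared libraries alone (adjusted p between 0.0634 and 0.193). Mttp lost its call with the 5 compared libraries alone (adjusted p = 0.0521).

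Abcg5 and Abcg8, which form one sterol exporter and share the stretch shown above, both rose. Abcg5 had 35.7 and 19.97 CPM in small intestine, against 6.23, 0.724 and 1.42 CPM in the CDX2 lines (log2 fold change 3.28 ± 0.84 (SE), adjusted p = 0.0365). Abcg8 had 22.4 and 21.8 CPM in small intestine, against 5.33, 0.845 and 1.26 CPM in the CDX2 lines (log2 fold change 3.12 ± 0.70 (SE), adjusted p = 0.0253). In both, CDX2 replicate 1 was the highest line, at 6.23 and 5.33 CPM, and the GFP lines averaged under 0.2 CPM. Apoa4, an apolipoprotein of chylomicrons, had 4.94 and 11.1 CPM in small intestine, against 0, 0.121 and 0 CPM in the CDX2 lines (log2 fold change 7.18 ± 1.80 (SE), adjusted p = 0.0424). Slc27a2, a fatty acid transporter, had 17.1 and 7.79 CPM in small intestine, against 2.21, 3.26 and 2.21 CPM in the CDX2 lines (log2 fold change 2.27 ± 0.63 (SE), adjusted p = 0.0454). Abcg5 lost its call without small intestine replicate 1 or CDX2 replicate 2 or 3 or with the 5 compared libraries alone (adjusted p between 0.0648 and 0.278). Abcg8 lost its call without small intestine replicate 1 or CDX2 replicate 3 or with the 5 compared libraries alone (adjusted p between 0.0735 and 0.16). Apoa4 lost its call without any 1 of the 5 libraries or with the 5 compared libraries alone (adjusted p between 0.0521 and 0.171). Slc27a2 lost its call without small intestine replicate 1 or CDX2 replicate 1, 2 or 3, with no filter on low counts or with the 5 compared libraries alone (adjusted p between 0.0506 and 0.4).

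Members that missed the threshold included Apoa1, the main apolipoprotein of HDL (25.9 and 40.7 CPM in small intestine, against 0.302, 6.64 and 0.316 CPM in the CDX2 lines; adjusted p = 0.067), Fabp1 (2.42 and 23.7 CPM in small intestine, against 1.31, 3.62 and 0 CPM in the CDX2 lines; 0.243) and Fabp2 (3.54 and 19.8 CPM in small intestine, against 2.01, 1.81 and 0.158 CPM in the CDX2 lines; 0.0954), the cytosolic fatty acid carriers. For Fabp1 the groups overlapped. Apoa1 passed the threshold without CDX2 replicate 2, by DESeq2 or by limma-voom (adjusted p between 0.0147 and 0.0293). Mttp kept its call in every fit without a library; the whole list had 1 call without small intestine replicate 1, 1 without CDX2 replicate 3, and 3 to 5 in the other such fits. Apob, the lipoprotein scaffold, had 82.6 and 315 CPM in small intestine, against 60.7, 28.6 and 87.9 CPM in the CDX2 lines (adjusted p = 0.104). The HNF4A lines averaged 816 ± 175 CPM. Fabp2 and Apob passed the threshold by DESeq2 (adjusted p = 0.0422 and 0.0348).

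Calls among transporters for other nutrients were near the shares over all genes, 5.63% higher and 5.67% lower. Of 14 amino acid and peptide transporters tested 1 rose and none fell: Slc16a10, an aromatic amino acid transporter, had 21.7 and 11.2 CPM in small intestine, against 0.603, 0.965 and 1.89 CPM in the CDX2 lines (log2 fold change 3.85 ± 1.04 (SE), adjusted p = 0.0435). Of 19 carriers of minerals, vitamins and bile acids, 2 rose and 1 fell, with a median of -0.42. Amn, amnionless, the anchor of the vitamin B12 receptor, had 21 and 10.9 CPM in small intestine, against 0.402, 1.45 and 0.631 CPM in the CDX2 lines (log2 fold change 4.25 ± 1.11 (SE), adjusted p = 0.0392). Slc26a6, an anion exchanger, had 20.4 and 26.1 CPM in small intestine, against 8.04, 1.93 and 2.68 CPM in the CDX2 lines (log2 fold change 2.44 ± 0.65 (SE), adjusted p = 0.0405). Slc9a3, a sodium-hydrogen exchanger, fell (2.42 and 4.72 CPM in small intestine, against 16.2, 63.8 and 138 CPM in the CDX2 lines; log2 fold change -4.35 ± 0.86 (SE), adjusted p = 0.0175). The mean over the GFP lines was 333 ± 37.8 CPM. The groups did not overlap in any of the 4, as in every called gene. Slc16a10 and Amn lost their calls without any 1 of the 5 libraries or with the 5 compared libraries alone (adjusted p between 0.0512 and 0.315). Slc26a6 lost its call without small intestine replicate 1 or 2 or CDX2 replicate 2 or 3 or with the 5 compared libraries alone (adjusted p between 0.0835 and 0.189). Slc9a3 lost its call without small intestine replicate 1, by limma-voom or with the 5 compared libraries alone (adjusted p between 0.0936 and 0.185).

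Trpv6, an epithelial calcium channel, missed the threshold (0 and 0.11 CPM in small intestine, against 41.2, 4.34 and 1.1 CPM in the CDX2 lines; adjusted p = 0.0548). CDX2 replicate 1 was far above the other lines for Trpv6, for S100g, the calcium-binding protein calbindin (46.9 and 18 CPM in small intestine, against 385, 14 and 17.4 CPM in the CDX2 lines), and for Slc40a1, the iron exporter ferroportin (50.02 and 121 CPM in small intestine, against 841, 197 and 231 CPM in the CDX2 lines; adjusted p = 0.0531). By region, 11 genes of the proximal small intestine were tested, of which 7 had negative fold changes (median -0.54). None fell by edgeR, while DESeq2 called 3 lower and limma-voom 2. Those that rose were Apoa4 and Onecut2, a cut-homeobox factor (63.1 and 229 CPM in small intestine, against 24.6, 18.6 and 33.6 CPM in the CDX2 lines; log2 fold change 2.51 ± 0.63 (SE), adjusted p = 0.0348). Onecut2 lost its call without any 1 of the 5 libraries or with the 5 compared libraries alone (adjusted p between 0.0587 and 0.209). Trpv6 passed the threshold by DESeq2 (adjusted p = 0.000781). Slc40a1 passed the threshold without CDX2 replicate 2, by DESeq2 or by limma-voom (adjusted p between 0.00192 and 0.0478). Of 8 ileal genes 2 rose, Osr2 and Amn. Of 5 colonic genes none was called by edgeR, DESeq2 or limma-voom, with 1 higher and 1 lower at an unadjusted p under 0.05.

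Of 13 genes of the urea cycle and related amino acid steps, 6 rose and 1 fell, with a median of 1.25. In the intestine these mitochondrial enzymes make citrulline from glutamine. Cps1 (chr1:67122426-67231267), carbamoyl phosphate synthetase, had 183 and 738 CPM in small intestine, against 0, 3.62 and 0.947 CPM in the CDX2 lines (log2 fold change 8.25 ± 1.32 (SE), adjusted p = 0.00888). The GFP lines averaged 0.284 ± 0.269 CPM. The HNF4A lines instead averaged 275 ± 209 CPM (SD, n = 3). HNF4A lines 1 and 2, at 332 and 450 CPM, lay between the small intestine libraries, and line 3, at 43.55 CPM, lay below both. The call of Cps1 held in each fit without 1 library. Cps1 lost its call by limma-voom or with the 5 compared libraries alone (adjusted p = 0.067 and 0.0623).

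Oat, ornithine aminotransferase, had 474 and 538 CPM in small intestine, against 63.5, 111 and 74 CPM in the CDX2 lines (log2 fold change 2.61 ± 0.33 (SE), adjusted p = 0.00354) and was called under each alternative run. Aldh18a1, pyrroline carboxylate synthase, had 273 and 226 CPM in small intestine, against 85.2, 111 and 119 CPM in the CDX2 lines (log2 fold change 1.25 ± 0.23 (SE), adjusted p = 0.0132). Slc25a15, the mitochondrial ornithine carrier, had 70.8 and 60.9 CPM in small intestine, against 24.8, 28.7 and 22.4 CPM in the CDX2 lines (log2 fold change 1.38 ± 0.23 (SE), adjusted p = 0.0103). Nags, which makes the activator of carbamoyl phosphate synthetase, had 8.57 and 7.57 CPM in small intestine, against 0, 0.362 and 0 CPM in the CDX2 lines (log2 fold change 5.89 ± 1.29 (SE), adjusted p = 0.03). Glul, glutamine synthetase, fell (31 and 97.2 CPM in small intestine, against 383, 314 and 333 CPM in the CDX2 lines; log2 fold change -2.42 ± 0.43 (SE), adjusted p = 0.0118). In these 6 genes, as in every called gene, the groups did not overlap. Aldh18a1 and Slc25a15 lost their calls without small intestine replicate 1 or with the 5 compared libraries alone (adjusted p between 0.0593 and 0.129). Nags lost its call without small intestine replicate 1 or 2 or CDX2 replicate 1 or 3 or with the 5 compared libraries alone (adjusted p between 0.0532 and 0.178). Glul lost its call with the 5 compared libraries alone (adjusted p = 0.086). The list had, without small intestine replicate 1, 2 higher calls and 1 lower, and in the other fits without a library 4 to 6 higher and 1 lower.

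Other genes also rose steeply. Anxa13 (chr15:58341464-58389274), an annexin of intestinal epithelium, had 133 and 109 CPM in small intestine, against 3.32, 0.845 and 0.789 CPM in the CDX2 lines (log2 fold change 6.12 ± 0.66 (SE), adjusted p = 0.00163). Its mean in the GFP lines was 0.0354 ± 0.0614 CPM. Abcc2, the apical conjugate exporter MRP2, had 260.3 and 185 CPM in small intestine, against 12.1, 1.45 and 0 CPM in the CDX2 lines (log2 fold change 5.56 ± 1.30 (SE), adjusted p = 0.0292), and was 1 of 37 xenobiotic genes to rise while Aldh1a1, a retinaldehyde dehydrogenase, fell (49.2 and 55.8 CPM in small intestine, against 183, 226 and 216 CPM in the CDX2 lines; log2 fold change -1.99 ± 0.35 (SE), adjusted p = 0.0116). Hsd17b13, a lipid droplet enzyme, had 62.3 and 69.5 CPM in small intestine, against 1.41, 2.65 and 2.21 CPM in the CDX2 lines (log2 fold change 4.98 ± 0.84 (SE), adjusted p = 0.0106). Hsd17b2, which oxidises sex steroids, had 10.9 and 37.4 CPM in small intestine, against 2.61, 0.483 and 0.158 CPM in the CDX2 lines (log2 fold change 4.39 ± 1.21 (SE), adjusted p = 0.0451). Abcc2 lost its call without small intestine replicate 1 or CDX2 replicate 2 or 3 or with the 5 compared libraries alone (adjusted p between 0.0619 and 0.171). Aldh1a1 and Hsd17b13 lost their calls without small intestine replicate 1 (adjusted p = 0.129 and 0.0619). Hsd17b2 lost its call without small intestine replicate 1 or 2 or CDX2 replicate 2 or 3, with no filter on low counts or with the 5 compared libraries alone (adjusted p between 0.0513 and 0.17).

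Epb4.1l3, a membrane skeleton protein, had 22.5 and 20.7 CPM in small intestine, against 0, 0 and 0.316 CPM in the CDX2 lines, and the ratio of small intestine to CDX2 lines was 267 (95% counting interval 73.4 to 2210), with an adjusted p of 0.00969. Gpr128, an adhesion receptor, had 86.2 and 148 CPM in small intestine, against 7.64, 5.79 and 1.42 CPM in the CDX2 lines (log2 fold change 4.53 ± 0.71 (SE), adjusted p = 0.0117). Snx20, a sorting nexin, had 16.9 and 28.5 CPM in small intestine, against 0.503, 0.845 and 0.158 CPM in the CDX2 lines (log2 fold change 5.42 ± 0.96 (SE), adjusted p = 0.0117). Slc14a1, a urea transporter, had 3.82 and 42.7 CPM in small intestine, against 0.402, 0 and 0 CPM in the CDX2 lines (log2 fold change 7.11 ± 1.53 (SE), adjusted p = 0.0403), and small intestine replicate 2 held most of it. Epb4.1l3 and Snx20 lost their calls without small intestine replicate 1 (adjusted p = 0.0687 and 0.0587). Gpr128 lost its call without small intestine replicate 1 or with the 5 compared libraries alone (adjusted p = 0.0619 and 0.0505). Slc14a1 lost its call without any 1 of the 5 libraries, by DESeq2, by limma-voom or with the 5 compared libraries alone (adjusted p between 0.0789 and 0.237). Anxa13 and Cps1 kept their calls without small intestine replicate 1.

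**Figure D3:**
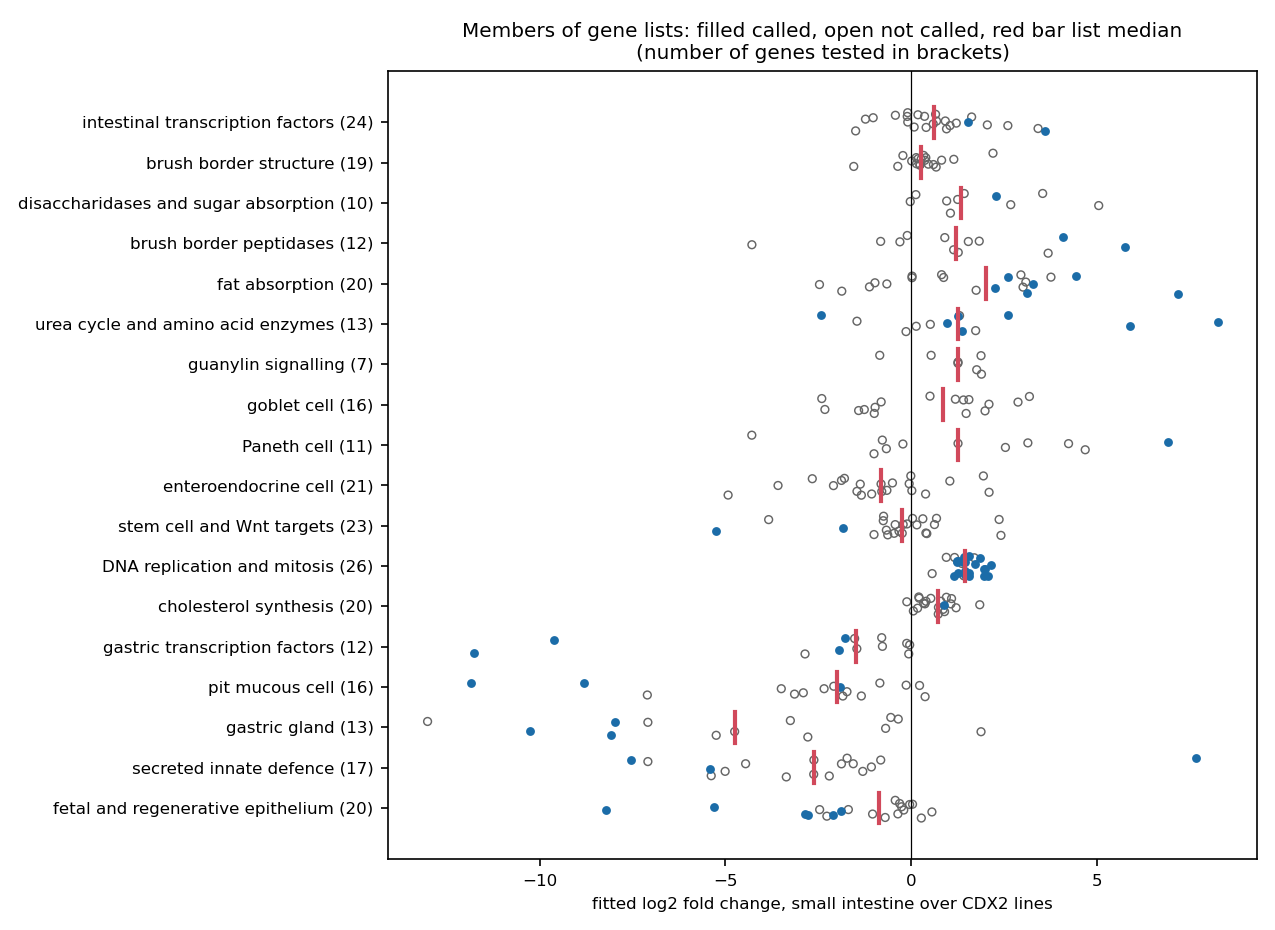
Fitted log2 fold change of small intestine over CDX2 lines on the x axis for each tested member of 18 gene lists on the y axis; filled points are called, open points are not, and red bars are list medians. The genes of DNA replication all lie right of 0 (median 1.45) and those of gastric glands mostly left (median -4.75). Those of brush border structure lie between -1.54 and 2.21, with 16 of 19 above 0 (median 0.27). Folds of genes without reads in small intestine depend on the fit's prior count.

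Of 16 goblet cell genes none was called by edgeR, and 2 in each direction had an unadjusted p under 0.05. By DESeq2 2 were higher and 1 lower, and by limma-voom 1 was higher. Muc2, the gel-forming mucin of goblet cells, had 5.96 and 55.1 CPM in small intestine, against 36.6, 13.9 and 13.6 CPM in the CDX2 lines (log2 fold change 0.51 ± 1.07 (SE), adjusted p = 0.78). In the GFP lines it averaged 3.39 ± 4.26 CPM. Tff3, the intestinal trefoil peptide, had 51.2 and 168 CPM in small intestine, against 80.8, 46.7 and 16.1 CPM in the CDX2 lines (log2 fold change 1.19 ± 0.86 (SE), adjusted p = 0.378). The mean over the GFP lines was 0.284 ± 0.402 CPM. Fcgbp, a mucus protein, had 131 and 824 CPM in small intestine, against 205, 101 and 54.4 CPM in the CDX2 lines. Muc13, a membrane mucin, had 219.9 and 325 CPM in small intestine, against 168, 9.77 and 12 CPM in the CDX2 lines, and neither was called. Muc13 passed the threshold without CDX2 replicate 1 (adjusted p = 0.016). Small intestine replicate 2 held more goblet transcripts than replicate 1, with list means on the log2(CPM + 1) scale of 5.607 and 3.39, and the CDX2 lines lay between them at 4.612, 4.441 and 4.029. Leaving out small intestine replicate 2, edgeR called 5 goblet genes lower in small intestine. Fcgbp passed the threshold by DESeq2 (adjusted p = 0.0236).

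Paneth cells, which secrete antimicrobial peptides at the crypt base, were represented by 11 genes, of which 1 rose. Pla2g2a, a secreted phospholipase, had 929 and 11.5 CPM in small intestine, against 0, 9.29 and 2.52 CPM in the CDX2 lines (log2 fold change 6.91 ± 1.88 (SE), adjusted p = 0.0442). Small intestine replicate 1 was thus far above every other library, and replicate 2 was close to CDX2 replicate 2. Pla2g2a lost its call without small intestine replicate 1 or CDX2 replicate 1, 2 or 3, by limma-voom, with no filter on low counts or with the 5 compared libraries alone (adjusted p between 0.0609 and 0.774). The gene carries an inactivating frameshift in C57BL/6 mice, and what sets its level in that library was not tested. Lyz1, lysozyme, had 29.7 and 86.4 CPM in small intestine, against 2.51, 26.4 and 0.789 CPM in the CDX2 lines (log2 fold change 2.54 ± 1.24 (SE), adjusted p = 0.199). Lyz1 passed the threshold without CDX2 replicate 2 (adjusted p = 0.0413). Reg lectins, antimicrobial proteins of the gut, split: Reg3g fell (2.7 and 3.51 CPM in small intestine, against 195, 128 and 350.4 CPM in the CDX2 lines; log2 fold change -6.17 ± 0.59 (SE), adjusted p = 0.000926), with 507 ± 95.7 CPM in the HNF4A lines and 162 ± 70.6 CPM in the GFP lines. Reg3b fell as well (1.02 and 0.439 CPM in small intestine, against 10.2, 7.96 and 26.5 CPM in the CDX2 lines; log2 fold change -4.28 ± 1.12 (SE), adjusted p = 0.04), while Reg4 had 10.2 and 93.2 CPM in small intestine, against 1.91, 0.845 and 3.31 CPM in the CDX2 lines (adjusted p = 0.0699). Reg3b lost its call without small intestine replicate 1 or 2 or CDX2 replicate 1 or 3, by limma-voom, with no filter on low counts or with the 5 compared libraries alone (adjusted p between 0.0556 and 0.242). The Reg genes lie in a family of close copies whose reads may be shared.

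Of 21 enteroendocrine genes none was called by edgeR, and 1 was higher and 2 lower at an unadjusted p under 0.05. By DESeq2 1 was lower and by limma-voom 1 was higher, and 16 of 21 fold changes were negative. Chga, chromogranin A, had 1.3 and 3.73 CPM in small intestine, against 4.93, 8.57 and 6 CPM in the CDX2 lines. Chgb, chromogranin B, had 13.5 and 44.2 CPM in small intestine, against 50.9, 128 and 39.1 CPM in the CDX2 lines, and 2.77 ± 0.751 CPM in the GFP lines. Of 10 tuft cell genes none was called by edgeR or limma-voom and 1 was lower by DESeq2, with 2 lower at an unadjusted p under 0.05; Dclk1, a kinase of tuft cells, had 0.0931 and 1.87 CPM in small intestine, against 3.02, 21.7 and 36.8 CPM in the CDX2 lines (adjusted p = 0.0794). Of 7 genes of guanylin signalling, the gut hormone pathway for fluid secretion, none was called by edgeR or limma-voom and 1 was higher by DESeq2, with 2 higher at an unadjusted p under 0.05. Gucy2c, its receptor, had 138 and 180 CPM in small intestine, against 117, 38.1 and 43.5 CPM in the CDX2 lines (log2 fold change 1.26 ± 0.48 (SE), adjusted p = 0.113). The GFP lines averaged 0.0709 ± 0.123 CPM. Gucy2c passed the threshold without CDX2 replicate 1 (adjusted p = 0.0237). Cftr, the chloride channel, had 220.1 and 298 CPM in small intestine, against 106, 70.3 and 33.9 CPM in the CDX2 lines (log2 fold change 1.88 ± 0.62 (SE), adjusted p = 0.0757). Dclk1 and Cftr passed the threshold by DESeq2 (adjusted p = 0.0096 and 0.0182).

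Of 23 genes of crypt stem cells and Wnt targets, none rose and 2 fell, with a median of -0.24. Lgr5, the R-spondin receptor that marks crypt and antral stem cells, had 76.8 and 104 CPM in small intestine, against 44.9, 179.5 and 228 CPM in the CDX2 lines (log2 fold change -0.74 ± 0.66 (SE), adjusted p = 0.483). Olfm4, a marker of small intestinal stem cells, had 0.279 and 76.9 CPM in small intestine, against 0.302, 17.5 and 4.58 CPM in the CDX2 lines (log2 fold change 2.37 ± 1.54 (SE), adjusted p = 0.329), and so was near 0 in small intestine replicate 1. Notum, a secreted lipase that inactivates Wnt ligands, fell (1.12 and 0.658 CPM in small intestine, against 29.1, 55.1 and 20.04 CPM in the CDX2 lines; log2 fold change -5.25 ± 0.60 (SE), adjusted p = 0.00241). Prom1, prominin 1, had 214 and 584 CPM in small intestine, against 1165, 1365 and 1730 CPM in the CDX2 lines (log2 fold change -1.83 ± 0.41 (SE), adjusted p = 0.0252). Prom1 lost its call without small intestine replicate 1 or CDX2 replicate 3 or with the 5 compared libraries alone (adjusted p between 0.0687 and 0.165).

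Of 26 genes of DNA replication and mitosis, 20 rose in small intestine and none fell; all 26 had higher values in both small intestine libraries than in every CDX2 line, beside 24.2% of all tested genes that were higher and 23.6% that were lower without overlap. The median log2 fold change was 1.45. Over the 26 genes the median level was 183 and 118 CPM in small intestine, against 40.4, 79.3 and 41.3 CPM in the CDX2 lines. It was 60.5, 65.9 and 54 CPM in the HNF4A lines and 61.7, 55.3 and 39.2 CPM in the GFP lines, so that the CDX2 lines overlapped the other stomach lines.

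Top2a, the topoisomerase of dividing cells, had 682 and 478 CPM in small intestine, against 118, 292 and 179 CPM in the CDX2 lines (log2 fold change 1.56 ± 0.35 (SE), adjusted p = 0.0247). Ccna2, cyclin A2, had 300.2 and 203 CPM in small intestine, against 59.2, 107 and 42.9 CPM in the CDX2 lines (log2 fold change 1.85 ± 0.38 (SE), adjusted p = 0.0203). Among helicase subunits of the replication fork, Mcm6 had 302 and 212 CPM in small intestine, against 83.4, 144 and 102 CPM in the CDX2 lines (log2 fold change 1.23 ± 0.25 (SE), adjusted p = 0.0179) and Mcm7 had 308 and 193 CPM in small intestine, against 72.5, 145 and 97.2 CPM in the CDX2 lines (log2 fold change 1.25 ± 0.28 (SE), adjusted p = 0.0255). Mki67, the proliferation antigen Ki-67, had 481 and 502 CPM in small intestine, against 149, 335 and 172 CPM in the CDX2 lines and missed the threshold (log2 fold change 1.17 ± 0.34 (SE), adjusted p = 0.0525). Top2a and Mcm6 lost their calls without small intestine replicate 1 or CDX2 replicate 3 or with the 5 compared libraries alone (adjusted p between 0.0603 and 0.215). Ccna2 and Mcm7 lost their calls without small intestine replicate 1 or CDX2 replicate 1 or 3 or with the 5 compared libraries alone (adjusted p between 0.051 and 0.263). Mki67 passed the threshold without CDX2 replicate 2, by DESeq2 or by limma-voom (adjusted p between 0.0117 and 0.0491). Over the list, without small intestine replicate 1 edgeR called none of the 26, without CDX2 replicate 3 there were 2 and without CDX2 replicate 1 there were 7. Without small intestine replicate 2 there were 19 and without CDX2 replicate 2 there were 22; with only the 5 compared libraries there were 0, by DESeq2 23 and by limma-voom 22. In these bulk libraries more dividing cells and more of each transcript per cell cannot be told apart, and the same holds for every cell type named here.

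**Figure D4:**
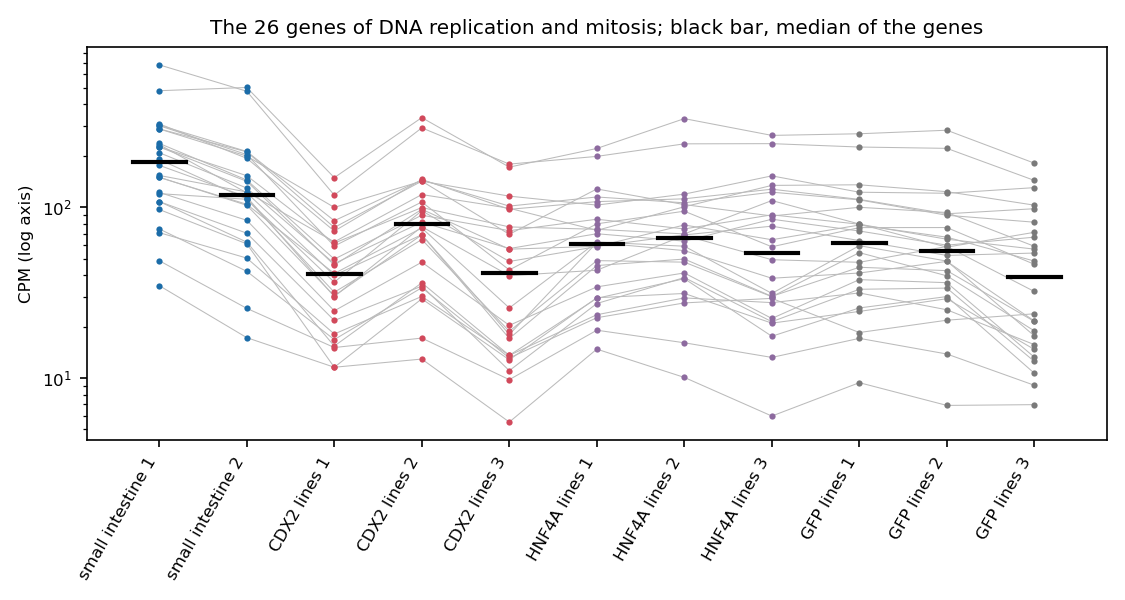
CPM on a log axis of the 26 genes of DNA replication and mitosis in each of the 11 libraries; each point is a gene, grey lines join the same gene and black bars are medians. The medians are 183 and 118 CPM in small intestine, 40.4 to 79.3 CPM in the CDX2 lines, 54 to 65.9 CPM in the HNF4A lines and 39.2 to 61.7 CPM in the GFP lines.

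Of 17 secreted defence genes tested, 2 fell in small intestine and 1 rose, 16 fold changes were negative and the median was -2.62. Their mean log2(CPM + 1) was 1.907 and 2.573 in small intestine. At such low levels a negative sign was likely beforehand, so the shared sign is not support. Ltf, the iron-binding protein lactoferrin, had 1.02 and 1.21 CPM in small intestine, against 35.7, 68 and 39.1 CPM in the CDX2 lines (log2 fold change -5.40 ± 0.67 (SE), adjusted p = 0.00313). Its mean in the GFP lines was 589.6 ± 386 CPM. Cxcl17, a mucosal chemokine, had 0.0931 and 0 CPM in small intestine, against 4.73, 20.8 and 10.6 CPM in the CDX2 lines (adjusted p = 0.00833). Nos2, the inducible nitric oxide synthase, rose (15.7 and 6.37 CPM in small intestine, against 0.101, 0 and 0 CPM in the CDX2 lines; adjusted p = 0.00528). Cxcl17 lost its call without small intestine replicate 1, by limma-voom or with the 5 compared libraries alone (adjusted p between 0.0629 and 0.136). Nos2 lost its call without small intestine replicate 1 (adjusted p = 0.0571).

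Gasdermin C genes were near 0 outside the CDX2 lines. Gsdmc2 (chr15:63824328-63845193), a pore-forming protein of epithelial cells, had 0.186 and 0 CPM in small intestine, against 287, 44.8 and 7.1 CPM in the CDX2 lines. The HNF4A lines averaged 0.13 ± 0.137 CPM and the GFP lines 0.142 ± 0.245 CPM. The ratio of CDX2 lines to small intestine was 1320 (95% counting interval 365 to 10910), with an adjusted p of 0.0186. Gsdmc4 followed with 0.0931 and 0 CPM in small intestine, against 18.5, 7.84 and 0.947 CPM in the CDX2 lines (adjusted p = 0.0382), and Gsdmc3 had 0 and 0 CPM in small intestine, against 24.1, 6.39 and 1.89 CPM in the CDX2 lines (adjusted p = 0.0553). CDX2 replicate 1 was the highest line and replicate 3 the lowest in all 3 genes, which are close copies whose reads may be shared. Casp1, the inflammasome protease, rose (22.1 and 36.1 CPM in small intestine, against 2.41, 4.34 and 1.26 CPM in the CDX2 lines). Its log2 fold change was 3.43 ± 0.51 (SE), with an adjusted p of 0.00649. Naip1, an inflammasome sensor, overlapped between groups (53.4 and 222 CPM in small intestine, against 202, 47.1 and 23.7 CPM in the CDX2 lines). It had an adjusted p of 0.669 and averaged 0.0354 ± 0.0614 CPM in the GFP lines. In the whole group of 13 genes 1 rose and 2 fell. Gsdmc2 and Gsdmc4 lost their calls without small intestine replicate 1 or 2, by limma-voom or with the 5 compared libraries alone (adjusted p between 0.0609 and 0.354). Without CDX2 replicate 1 or 2 Gsdmc4 did not pass the filter on low counts. Casp1 lost its call with the 5 compared libraries alone (adjusted p = 0.0629).

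Of 16 terminal glycosyltransferases, enzymes that finish the sugar chains of mucins and other glycoproteins, 1 rose and 2 fell. Fut2, the secretor fucosyltransferase, had 8.38 and 9.22 CPM in small intestine, against 63.5, 97.9 and 85 CPM in the CDX2 lines (log2 fold change -3.22 ± 0.27 (SE), adjusted p = 0.000474). In the GFP lines it averaged 165 ± 38.2 CPM. St6gal1, a sialyltransferase, had 2.61 and 2.96 CPM in small intestine, against 69.2, 22 and 64.1 CPM in the CDX2 lines (log2 fold change -4.21 ± 0.50 (SE), adjusted p = 0.00272), with 19 ± 1.34 CPM in the GFP lines. B4galnt1, a ganglioside enzyme, rose (215 and 145 CPM in small intestine, against 87.2, 77.1 and 101 CPM in the CDX2 lines; log2 fold change 1.03 ± 0.21 (SE), adjusted p = 0.0197). B4galnt1 lost its call without small intestine replicate 1 or with the 5 compared libraries alone (adjusted p = 0.212 and 0.0905). St6gal1 lost its call with the 5 compared libraries alone (adjusted p = 0.0511).

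In fatty acid oxidation and ketogenesis 2 of 18 rose and 1 fell. Those that rose were Bdh1, a ketone body dehydrogenase (203 and 390.2 CPM in small intestine, against 95.9, 118 and 67.8 CPM in the CDX2 lines; log2 fold change 1.66 ± 0.46 (SE), adjusted p = 0.0454) and Ehhadh, a peroxisomal enzyme (27.7 and 43.6 CPM in small intestine, against 18.3, 19.1 and 15 CPM in the CDX2 lines; log2 fold change 1.03 ± 0.28 (SE), adjusted p = 0.0441). Bdh1 lost its call without any 1 of the 5 libraries, by limma-voom, with no filter on low counts or with the 5 compared libraries alone (adjusted p between 0.0517 and 0.199). Ehhadh lost its call without any 1 of the 5 libraries, by limma-voom or with the 5 compared libraries alone (adjusted p between 0.0528 and 0.212).

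Of 20 cholesterol synthesis genes, 19 fold changes were positive (median 0.73) and 1 rose: Stard4, a sterol carrier, had 200.1 and 227 CPM in small intestine, against 91.7, 152 and 103 CPM in the CDX2 lines (log2 fold change 0.89 ± 0.22 (SE), adjusted p = 0.0335). Stard4 lost its call without small intestine replicate 1 or 2 or CDX2 replicate 1 or 3 or with the 5 compared libraries alone (adjusted p between 0.0739 and 0.168). CDX2 replicate 2 came near small intestine in that list, with a mean log2(CPM + 1) of 7.47, against 6.88 and 6.295 in CDX2 replicates 1 and 3; small intestine stood at 7.514 and 7.74. Of 20 genes of the unfolded protein response 1 fell, Xbp1, its transcription factor (136 and 149.5 CPM in small intestine, against 208, 283 and 311 CPM in the CDX2 lines; log2 fold change -0.91 ± 0.23 (SE), adjusted p = 0.036). Xbp1 lost its call without small intestine replicate 1 or 2 or CDX2 replicate 2 or 3 or with the 5 compared libraries alone (adjusted p between 0.0687 and 0.281). Of 23 interferon genes 2 fell at low levels, Usp18 and Zbp1, with at most 2.01 CPM of Usp18 and 2.05 CPM of Zbp1 in a CDX2 line. Usp18 lost its call without any 1 of the 5 libraries, by limma-voom or with the 5 compared libraries alone (adjusted p between 0.0513 and 0.213). Zbp1 lost its call without small intestine replicate 1 or 2 or CDX2 replicate 3, by limma-voom or with the 5 compared libraries alone (adjusted p between 0.0541 and 0.238).

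All 17 liver-type plasma proteins tested had negative fold changes (median -3.03, or -2.81 with genes at 0 put at their bound), and 2 were called. Their mean log2(CPM + 1) was 0.422 and 0.885 in small intestine, against 1.15, 2.953 and 1.608 in the CDX2 lines. With levels this low in small intestine a negative sign was likely beforehand, so the shared sign is not support. Of the 17, 5 were lower without overlap, beside 23.6% of all tested genes. With the 5 compared libraries alone edgeR called none. Trf, transferrin, had 1.49 and 2.41 CPM in small intestine, against 102, 159.9 and 616 CPM in the CDX2 lines (log2 fold change -7.23 ± 1.01 (SE), adjusted p = 0.00502). The mean over the GFP lines was 3622 ± 2095 CPM. Rbp4, the retinol carrier, had 1.4 and 1.21 CPM in small intestine, against 4.02, 12.4 and 11.4 CPM in the CDX2 lines (log2 fold change -2.81 ± 0.64 (SE), adjusted p = 0.0269). Alb, albumin, reached 35.6 CPM in CDX2 replicate 2 and at most 0.201 CPM in CDX2 replicates 1 and 3, beside 0.186 and 2.52 CPM in small intestine (adjusted p = 0.425). Trf lost its call without small intestine replicate 1 or with the 5 compared libraries alone (adjusted p = 0.071 and 0.062). Rbp4 lost its call without small intestine replicate 1 or 2 or CDX2 replicate 2 or 3, by limma-voom or with the 5 compared libraries alone (adjusted p between 0.0501 and 0.201).

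Of 20 genes of fetal and regenerating epithelium 6 fell in small intestine and none rose, with a median of -0.87. Spp1, the matrix protein osteopontin, had 0 and 6.7 CPM in small intestine, against 463, 677 and 1781 CPM in the CDX2 lines (log2 fold change -8.21 ± 1.41 (SE), adjusted p = 0.011), with 3038 ± 1261 CPM in the GFP lines. Ctgf, a target of the YAP pathway, had 153 and 133 CPM in small intestine, against 654, 748 and 1719 CPM in the CDX2 lines (log2 fold change -2.86 ± 0.74 (SE), adjusted p = 0.0382). Cyr61, another such target, had 34.6 and 31.2 CPM in small intestine, against 82, 69.5 and 211 CPM in the CDX2 lines (log2 fold change -1.88 ± 0.51 (SE), adjusted p = 0.0449). Basp1, a membrane protein, had 2.98 and 31.9 CPM in small intestine, against 105, 84.1 and 171 CPM in the CDX2 lines (log2 fold change -2.78 ± 0.77 (SE), adjusted p = 0.0459). Gja1, connexin 43, fell too (log2 fold change -5.29 ± 0.89). Clu, clusterin, had 83.5 and 1533 CPM in small intestine, against 3817, 2929 and 4926 CPM in the CDX2 lines and missed the threshold (adjusted p = 0.123), with small intestine replicates 1 and 2 more than 8-fold apart. Ctgf lost its call without small intestine replicate 1 or 2 or CDX2 replicate 3 or with the 5 compared libraries alone (adjusted p between 0.0723 and 0.26). Cyr61 lost its call without small intestine replicate 1 or 2 or CDX2 replicate 1 or 3, by limma-voom, with no filter on low counts or with the 5 compared libraries alone (adjusted p between 0.051 and 0.278). Basp1 lost its call without small intestine replicate 1 or CDX2 replicate 1, 2 or 3, with no filter on low counts or with the 5 compared libraries alone (adjusted p between 0.0583 and 0.148). Gja1 lost its call without small intestine replicate 1 or by limma-voom (adjusted p = 0.124 and 0.0641). Clu passed the threshold without small intestine replicate 2 or by DESeq2 (adjusted p = 0.0023 and 0.0176). Of the 20, 1 was called without small intestine replicate 1, and 3 to 5 without any other library. Spp1 lost its call with the 5 compared libraries alone (adjusted p = 0.0858).

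Of 18 claudin and tight junction genes 1 rose, Cldn2, a pore-forming claudin (312 and 662 CPM in small intestine, against 202, 207 and 201 CPM in the CDX2 lines; log2 fold change 1.26 ± 0.32 (SE), adjusted p = 0.0348), and 1 fell, Cldn18. Cldn2 lost its call without small intestine replicate 2 or CDX2 replicate 1, 2 or 3 or with the 5 compared libraries alone (adjusted p between 0.0667 and 0.204). Of 12 keratins none was called by edgeR or limma-voom, DESeq2 called 1 in each direction, and 1 stood on each side at an unadjusted p under 0.05. Krt8, the main simple-epithelial keratin, had 2971 and 5049 CPM in small intestine, against 5572, 3655 and 2311 CPM in the CDX2 lines. Of 13 potassium channels, FXYD proteins and aquaporins 2 fell, Aqp5 and Fxyd3.

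**Figure D5:**
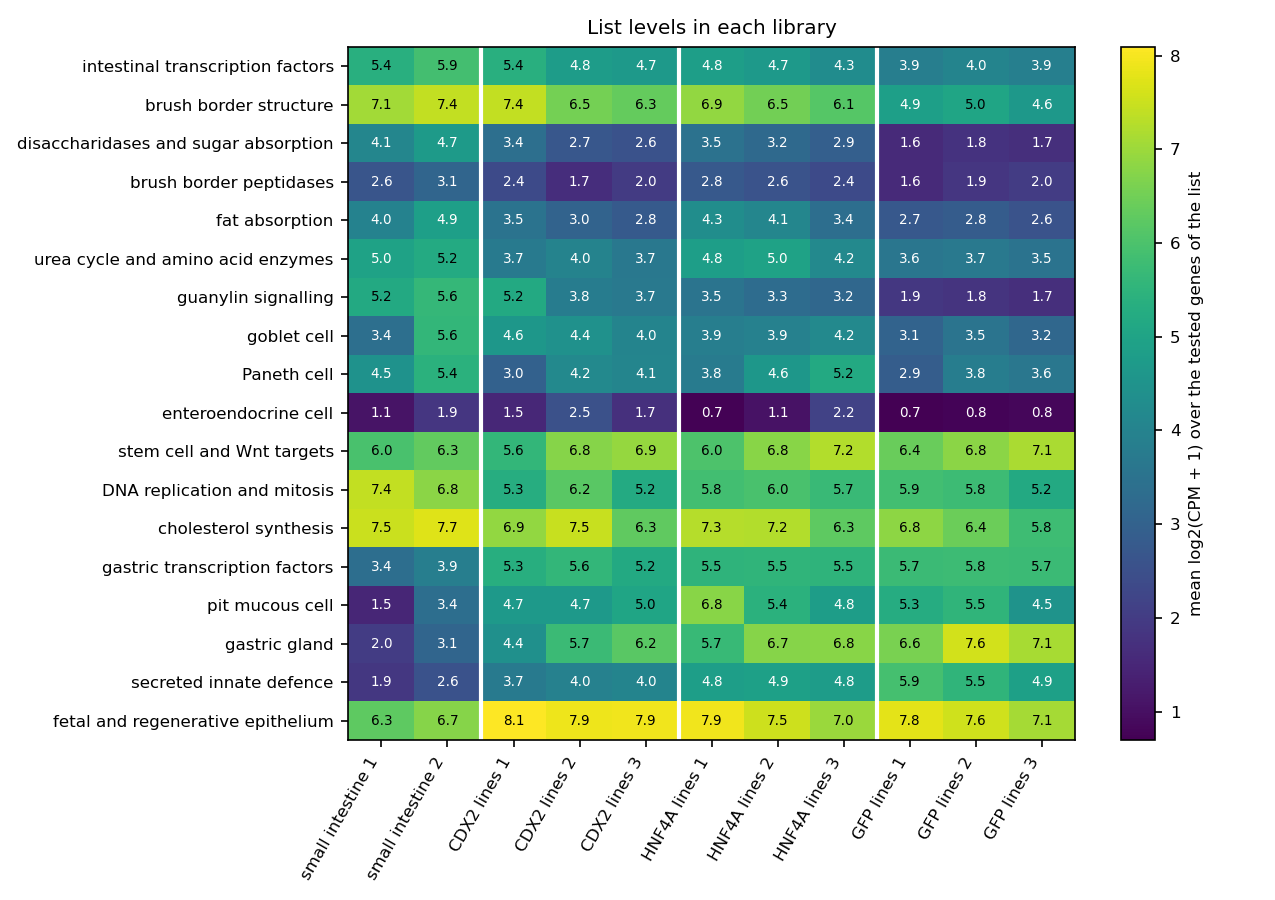
Mean log2(CPM + 1) over the tested genes of 18 lists (rows) in each of the 11 libraries (columns), with the value printed in each cell. Brush border structure is at 7.1 and 7.4 in small intestine and 6.3 to 7.4 in the CDX2 lines, against 4.6 to 5.0 in the GFP lines, while gastric glands are at 2.0 and 3.1 in small intestine and 4.4 to 6.2 in the CDX2 lines.

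Summed over 12 fibroblast genes, the libraries held 4.5 to 5.96 CPM in small intestine and 5.91 to 7.26 CPM in the CDX2 lines, with Lum and Thy1 at 0 in all 5. Endothelial genes summed to 4.38 to 4.72 CPM in small intestine and 4.22 to 7.24 CPM in the CDX2 lines, and neural and glial genes to 1.58 to 3.84 CPM in small intestine and 1.91 to 7.12 CPM in the CDX2 lines. Immune genes summed to 15.2 to 17.8 CPM in small intestine and 54.7 to 62.3 CPM in the CDX2 lines, most of it Cd68, a lysosomal protein (13.2 and 12.2 CPM in small intestine, against 57.2, 59.7 and 44.5 CPM in the CDX2 lines; adjusted p = 0.0845). Squamous genes summed to 217 to 585 CPM in small intestine and 116 to 818 CPM in the CDX2 lines, led by Krt4, and 1 of 9 rose, Dsg3, a desmosomal cadherin (5.4 and 19.4 CPM in small intestine, against 2.82, 2.17 and 0.789 CPM in the CDX2 lines; log2 fold change 2.66 ± 0.76 (SE), adjusted p = 0.049). Dsg3 lost its call without any 1 of the 5 libraries, by limma-voom, with no filter on low counts, with DESeq2 size factors in edgeR or with the 5 compared libraries alone (adjusted p between 0.0502 and 0.33). None of the fibroblast, endothelial, immune and neural genes tested (4, 3, 3 and 4) was called by edgeR on the 11 libraries or by limma-voom, DESeq2 called 1 immune and 1 neural gene lower, and 1 immune and 1 neural gene were lower at an unadjusted p under 0.05. The part of any of these transcripts in the results was not tested. Cd68 passed the threshold by DESeq2 or with the 5 compared libraries alone (adjusted p = 0.011 and 0.0368).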

How the data were processed

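The authors deposited a table of raw counts per gene for 19733 mouse genes. The submitters' processing notes name STAR, Bowtie2, Cell Ranger, mm10 and hg19 without saying which step used them; the sources used here do not give the counting program, annotation or use of strand. Per the labels' protocols, RNA was read as poly-A libraries with paired ends. The 9 enhancer-deletion columns were not used here. Counts of the 11 libraries of small intestine, CDX2, HNF4A and GFP lines were filtered (edgeR filterByExpr, minimum count 10, total 15), scaled with TMM and compared with edgeR 4.0.16's robust quasi-likelihood test (R 4.3.3), small intestine minus CDX2, with Benjamini-Hochberg adjustment over 12720 genes at 0.05. SE is the log2 fold change over the square root of F. Folds against a group at 0 use 3 counts over the group; intervals cover counting error only. Alternatives were DESeq2 1.42.0, limma-voom 3.58.1, other scaling, no filter, a replicate block, the 5 libraries alone and each library left out. The 42 gene lists and all members were chosen with earlier results of these data known. Named genes are the 12 largest called folds each way without overlap (mean 20 CPM or more), up to 4 called members per list or, with none called, the 2 highest, and fixed markers; further members were named after their values were seen. Some genes counted in the lists are not reported here. Gene coordinates and promoters are from RefSeq (GRCm38.p6). Every pair of replicates differed beyond sampling noise (chi-square per degree of freedom 45.62 to 73.44).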

Additional observations from a re-analysis of the deposited data

How the results depend on the processing

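Against 716 genes higher and 721 lower, DESeq2 gave 1208 and 1467, the 5 compared libraries alone 16 and 54, and fits without 1 library 22 to 642 higher and 81 to 759 lower, of which 149 and 295 came without CDX2 replicate 3 and 302 higher without CDX2 replicate 1. DESeq2 size factors in edgeR (681 and 726), no filter on low counts (597 and 602), limma-voom (801 and 537) and a fit that was not robust (715 and 723) stayed within 1.5 times. Of the 642 and 759 without small intestine replicate 2, 534 and 464 were also called with all libraries. The replicate block gave 1493 and 1449 calls. Small intestine and CDX2 libraries share only numbers: deviations of same-numbered libraries correlated at -0.093 and -0.144, against 0.363 to 0.785 among the stomach lines, so this block is not the main analysis. No named gene changed direction in any setting where it was called. Of 80 called genes named by rule 20 stayed called with the 5 libraries alone, 56 by limma-voom, 71 without the filter, and 77 each by DESeq2, with 1 that has no adjusted p there, and with the block. By edgeR with the block, Slc16a10, Pla2g2a and Slc14a1 lost their calls (adjusted p between 0.051 and 0.0873). The block also called Cd68 and Ret lower. Among other genes that the main fit did not call, it called Cdx1, Lyz1, Cftr and Reg4 higher and Anpep lower. With 2 small intestine libraries, genes near 3 counts (0.279 to 0.473 CPM) are limited by depth.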

Other observations

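Counted over symbols that share a stem, with at least 10 tested genes for each stem, some groups stood out, picked after their values were seen. Whether every symbol of a stem belongs to the gene family was not checked. Mcm6, Mcm7, Sox2 and Sox21 were already counted in the lists above, so their calls are not new. Of 21 tested nucleoporins (Nup), which build the nuclear pore, 12 (57.1%) rose in small intestine and none fell, beside 5.63% higher over all genes. Nup205, an inner ring subunit, had 211 and 169 CPM in small intestine, against 84.6, 103 and 98.5 CPM in the CDX2 lines (log2 fold change 1.00 ± 0.17 (SE), adjusted p = 0.0113), and Nup107, an outer ring subunit, had 99.1 and 56.7 CPM in small intestine, against 24.2, 37.3 and 25.4 CPM in the CDX2 lines (log2 fold change 1.43 ± 0.29 (SE), adjusted p = 0.0185). Both small intestine libraries exceeded every CDX2 line in these genes, as in every gene called higher. Of 10 genes of the Mcm stem 7 (70%) rose. None of the 12 nucleoporins and none of the 7 Mcm genes was called by edgeR without small intestine replicate 1. Of them 7 and 5 were called without CDX2 replicate 1, and 6 and 3 without CDX2 replicate 3. With the 5 compared libraries alone edgeR called none of the 12 and none of the 7.

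Frizzled genes (Fzd), the receptors of Wnt ligands, went the other way: 4 of 10 (40%) fell and none rose, beside 5.67% lower over all genes. Fzd1 had 0.652 and 2.74 CPM in small intestine, against 77.5, 40.9 and 47.6 CPM in the CDX2 lines (log2 fold change -5.05 ± 0.76 (SE), adjusted p = 0.00696), Fzd3 had 0.186 and 0.11 CPM in small intestine, against 2.92, 11.2 and 5.52 CPM in the CDX2 lines (log2 fold change -5.31 ± 0.98 (SE), adjusted p = 0.0134), and Fzd8 had 6.33 and 5.38 CPM in small intestine, against 12.7, 12.3 and 12.8 CPM in the CDX2 lines (log2 fold change -1.10 ± 0.25 (SE), adjusted p = 0.0269). Fzd10 had 0.279 and 0 CPM in small intestine, against 20.4, 8.57 and 7.1 CPM in the CDX2 lines (adjusted p = 0.0263). None of the 4 was called without small intestine replicate 1, and 2 were without small intestine replicate 2. Of 13 Sox genes 4 fell (Sox2, Sox5, Sox7 and Sox21), of which 1 was called without small intestine replicate 1 and 2 without CDX2 replicate 3. Of 26 genes of the Col stem, mostly collagens, 5 fell (Col14a1, Col16a1, Col27a1, Col4a5 and Col7a1), 4 of them with under 4 CPM in both small intestine libraries. Of the 5, 1 was called without small intestine replicate 1, 2 without small intestine replicate 2, and 2 each without CDX2 replicates 2 and 3. With the 5 compared libraries alone edgeR called 1 of the 4 Fzd, none of the 4 Sox and none of the 5 collagen genes. By limma-voom 2 Fzd, 2 Sox and 1 collagen gene of these were called. Of 44 cytochrome P450 genes (Cyp) and 45 genes of the Rpl stem edgeR called none, with median log2 fold changes of -0.08 and 0.34.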
